A study of Homo sapiens with 12 samples.

Results

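The transcriptomes of cells edited with KDM4C guide sg3 and of cells edited with KDM4C guide sg2 were set against each other, to see how far both guides against 1 gene gave the same expression. The comparison was chosen by the guide in the sample titles and took 8 of the 12 libraries, 4 per guide, and 13996 of 38551 genes of the deposited count table passed a filter on low counts. The cells were HEL, an established human erythroleukemia line with mutated JAK2, and they stably expressed the Cas9 nuclease under blasticidin. Sg3 cells and sg2 cells were transduced with lentiviruses carrying that guide, and control cells (4 libraries) carried a guide against luciferase, a gene that human cells lack. Puromycin at 1.5 µg/mL removed untransduced cells from every group within an 11-day culture, and the column names of the table give dimethyl sulfoxide, the vehicle of a JAK inhibitor, for all 12 libraries. Each group was a transduced pool and not a clone, so a library can hold cells with different edits and cells with none, and the share of edited cells cannot be read from these counts. The study's methods divide the cells into 4 replicates only at the last step, so the spread between libraries of a guide may be technical. The p-values and intervals rest on that spread, so a difference of guide and one of transduced pool cannot be told apart.

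KDM4C (JMJD2C) is a Jumonji-domain demethylase that uses iron and 2-oxoglutarate to remove methyl groups from trimethylated lysines 9 and 36 of histone H3. The first mark is found in silent heterochromatin and the second in the bodies of transcribed genes. KDM4A and KDM4B are close relatives with the same substrates, and KDM4D acts on lysine 9. Cas9 cuts DNA close to a short motif (NGG, the PAM) that follows the guide's target, and errors of repair there shift the reading frame in some cells.

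The targets of both guides are shown because they differ in place and in strand within the same coding sequence. The guides were taken from the study's list and found in hg38. Each line gives 80 bases of the guide's own strand with the 20 bases of the guide in capitals. The PAM is the 3 lower-case bases that follow them.
sg3: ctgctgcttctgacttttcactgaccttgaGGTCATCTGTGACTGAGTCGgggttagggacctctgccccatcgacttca
sg2: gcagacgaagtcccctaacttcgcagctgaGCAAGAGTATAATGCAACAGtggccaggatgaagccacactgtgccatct

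The sg3 target lies on chromosome 9, bases 6984259 to 6984278 of hg38, on the minus strand, with the PAM GGG. It is in exon 10 of 22 of KDM4C, which is coding exon 9 of 21, and the cut falls at coding base 1211 of 3168, in codon 404 of 1056. The sg2 target lies at bases 7011804 to 7011823, on the plus strand, with the PAM TGG, in exon 13 of 22 (coding exon 12 of 21), and its cut falls at coding base 1909, in codon 637. Thus 38.2% of the coding sequence lies before the sg3 cut and 60.3% before the sg2 cut, and 27559 bases separate the cuts. Each guide cuts 5 of the 8 coding transcripts annotated for the gene, which spans bases 6720863 to 7175648.

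KDM4C mRNA was higher in sg3 than in sg2 libraries, without passing the test over all genes. The 4 sg3 libraries held 59.5, 60.8, 63.3 and 63.2 CPM (counts scaled to a common library size), against 40.5, 43.0, 49.8 and 55.1 CPM in the 4 sg2 libraries. Every sg3 library lay above every sg2 library, and the sg2 libraries spread more widely. The mean was 61.7 ± 1.86 CPM in sg3, 47.1 ± 6.62 CPM in sg2 and 69.4 ± 1.72 CPM in luciferase control (SD, n = 4 each). KDM4C was 0.40 higher in sg3 than in sg2 on the log2 scale (SE 0.07, 95% interval 0.25 to 0.55), with an adjusted p of 0.064 in edgeR's quasi-likelihood test over all genes, which misses the 0.05 at which a gene was called. Limma-voom (adjusted p = 0.033) and DESeq2 (adjusted p = 0.00022) did call it. Without sg2 libraries 1 and 2 the difference was 0.23 (edgeR adjusted p = 0.86), and without sg2 libraries 3 and 4 it was 0.56 (edgeR adjusted p = 3.95e-05). Against the same control libraries, KDM4C fell by 0.17 with sg3 (edgeR adjusted p = 0.0499) and by 0.57 with sg2 (edgeR adjusted p = 2.59e-05). The mRNA level says nothing of the frame of the transcripts that remain, and protein was not measured in these files. The study reports that Western blotting and PCR showed the deletion, which these counts do not cover.

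**Figure D1:**
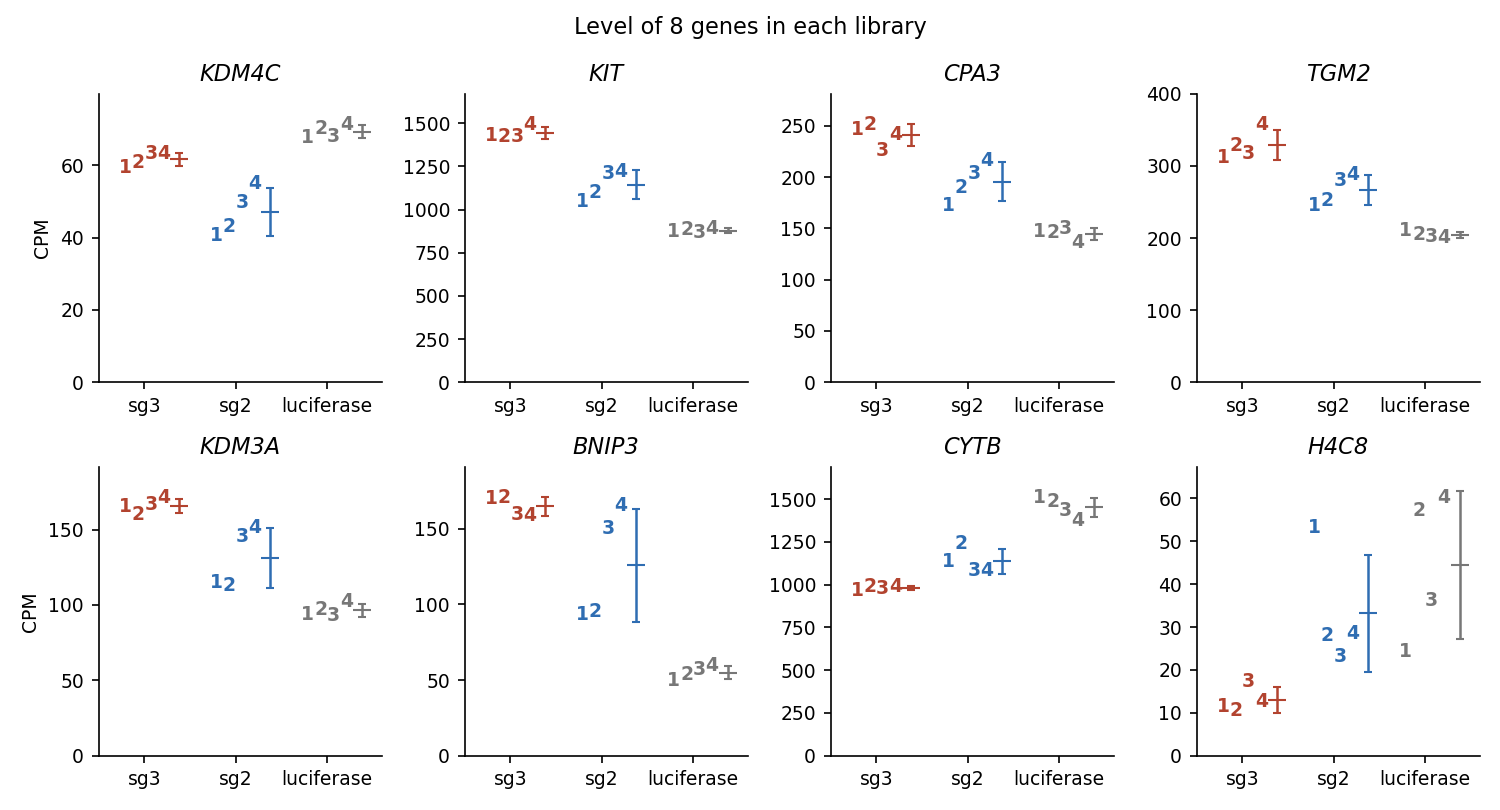
Level in CPM (vertical axes, from 0) of 8 genes in each library of sg3, sg2 and luciferase control. Digits are library numbers, and bars give mean and SD of 4 libraries. KDM4C and KIT of sg3 lie above every sg2 library, and BNIP3 of sg2 splits into libraries 1 and 2 at 93.2 and 95.1 CPM and libraries 3 and 4 at 150 and 165 CPM.

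Principal component 1 of the 12 libraries (38.4% of the variance) put the sg3 libraries at 16.9 to 23.1. Of the sg2 libraries, numbers 3 and 4 scored 14.3 and 12.4 and numbers 1 and 2 scored -3.25 and -0.269, and the luciferase libraries scored -27.6 to -22.8. The second component (12.7%) set sg3 libraries 3 and 4 (-10.02 and -24.0) apart from sg3 libraries 1 and 2 (9.13 and 9.14). With the 8 guide libraries alone, component 1 (27.2% of their variance) put sg3 at 0.405 to 27.8 and sg2 at -21.9 to -1.92, without overlap. Over all genes, the median distance of sg2 library 4 to sg3 libraries 1 and 2 was 0.0936 and 0.0928 on the log2 scale, and its distance to sg2 libraries 1 and 2 was 0.133 and 0.130. Library 4 of sg2 was nearer to those libraries of the other guide than to those of its own. Across pairs, distances ran from 0.0810 to 0.144 within sg3, from 0.0837 to 0.133 within sg2 and from 0.0928 to 0.176 between the guides, so the ranges overlap. No pair of libraries agreed within sampling noise (reduced chi-square 1.71 or more within sg3 and 2.46 or more within sg2), and all were counted as separate replicates. Total counts were 13631749 to 20691332 in sg3, 10031809 to 33052605 in sg2 and 13247734 to 78966125 in control.

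**Figure D2:**
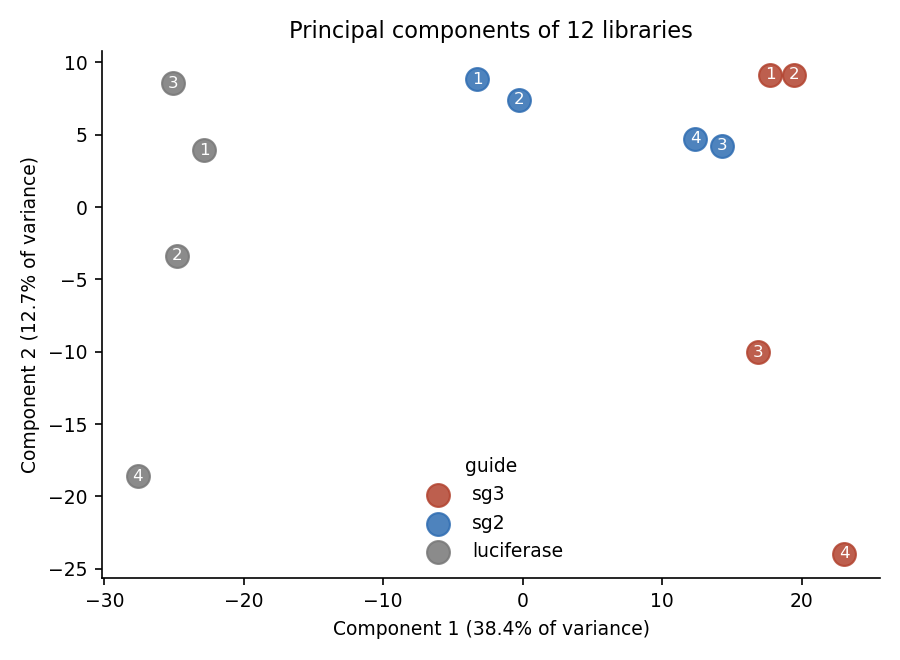
First 2 principal components of log2 CPM for the 12 libraries (axes in component units, with the share of variance). Digits are library numbers. Sg2 libraries 3 and 4 sit beside the sg3 libraries on component 1, at 14.3 and 12.4, and sg2 libraries 1 and 2 sit at -3.25 and -0.269.

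The spread between the 4 libraries was of similar size for both guides. The median SD of log2 CPM over 13996 genes was 0.104 in sg3 and 0.106 in sg2, against 0.0864 in control, and 46.6% of genes had the larger SD in sg3. Of protein-coding genes whose average log2 CPM reached 5, the 5 with the largest SD in sg3 were HBG1, HBA1, RPS29, ATP5ME and RPL38, which encode globin chains, ribosomal proteins and a subunit of ATP synthase. HBA1 (hemoglobin alpha) measured 102, 97.9, 37.0 and 20.6 CPM in sg3 libraries 1 to 4, against 105, 105, 111 and 114 CPM in sg2. Sg3 libraries 3 and 4 were low, as was control library 4 at 34.6 CPM, against 89.8 to 115 CPM in the other control libraries. Globin genes have near-identical copies, so these values are uncertain. RPS29 of the small ribosomal subunit had the same order, with 232, 203, 99.2 and 57.4 CPM in sg3 and 187 to 228 CPM in sg2, and control library 4 was again low, at 90.3 CPM. None of the 5 in sg2 was among these: they were MT2A, H2BC18, H4C5, BNIP3 and ALDOC, that is a metallothionein, 2 histones and 2 genes induced by low oxygen. ALDOC (aldolase C) measured 251, 264, 244 and 253 CPM in sg3, against 140, 141, 222 and 243 CPM in sg2. Here the break lay within sg2, between libraries 1 and 2 and libraries 3 and 4.

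Of 13996 genes tested, 1 was called between the guides (0.00714%), and it was KIT, which rose in sg3. The median log2 fold change was 0.00, with quartiles at -0.08 and 0.09 and a range from -2.30 to 1.60, and 509 genes reached 0.5 in either direction, 56 of them 1. The 95% interval of sg3 against sg2 lay within 0.5 of 0 for 10574 genes (75.6%) and within 1 for 13058 genes (93.3%), and among 6265 genes whose average log2 CPM reached 5 the first share was 98.2%. Without adjustment, p was under 0.05 for 1116 genes with sg3 higher (7.97%) and 982 with sg3 lower (7.02%). The 4 sg3 libraries lay above all 4 sg2 libraries for 477 genes (3.41%) and below them for 356 (2.54%).

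The number of calls turned on which sg2 and sg3 libraries were used. Without sg2 libraries 3 and 4, 967 genes were called (595 of them higher in sg3), and without sg2 libraries 1 and 2, none was, with 768 at an unadjusted p under 0.05. Without sg2 library 4 alone, 201 genes were called. Without sg3 libraries 1 and 2, 666 genes were called, 435 of them lower in sg3, and without sg3 libraries 3 and 4 none was, with 1443 at an unadjusted p under 0.05. Leaving 2 libraries out also lowers the number of samples, so the size of each count is not comparable with that of the full fit. Without sg3 library 1, sg3 library 3 or sg2 library 2, KIT was no longer called (0 calls by edgeR, with 2421, 1671 and 1340 genes at an unadjusted p under 0.05), and leaving out any other single library of sg3 or sg2 gave 1 or 2 calls apart from the case of sg2 library 4. Among the 477 genes with sg3 above sg2 and no overlap, sg2 libraries 3 and 4 both lay above sg2 libraries 1 and 2 for 41.3%, against 24.2% of all genes tested. Among the 356 with sg3 below, libraries 3 and 4 of sg2 both lay below libraries 1 and 2 for 35.4%, against 24.3% of all genes.

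**Figure D3:**
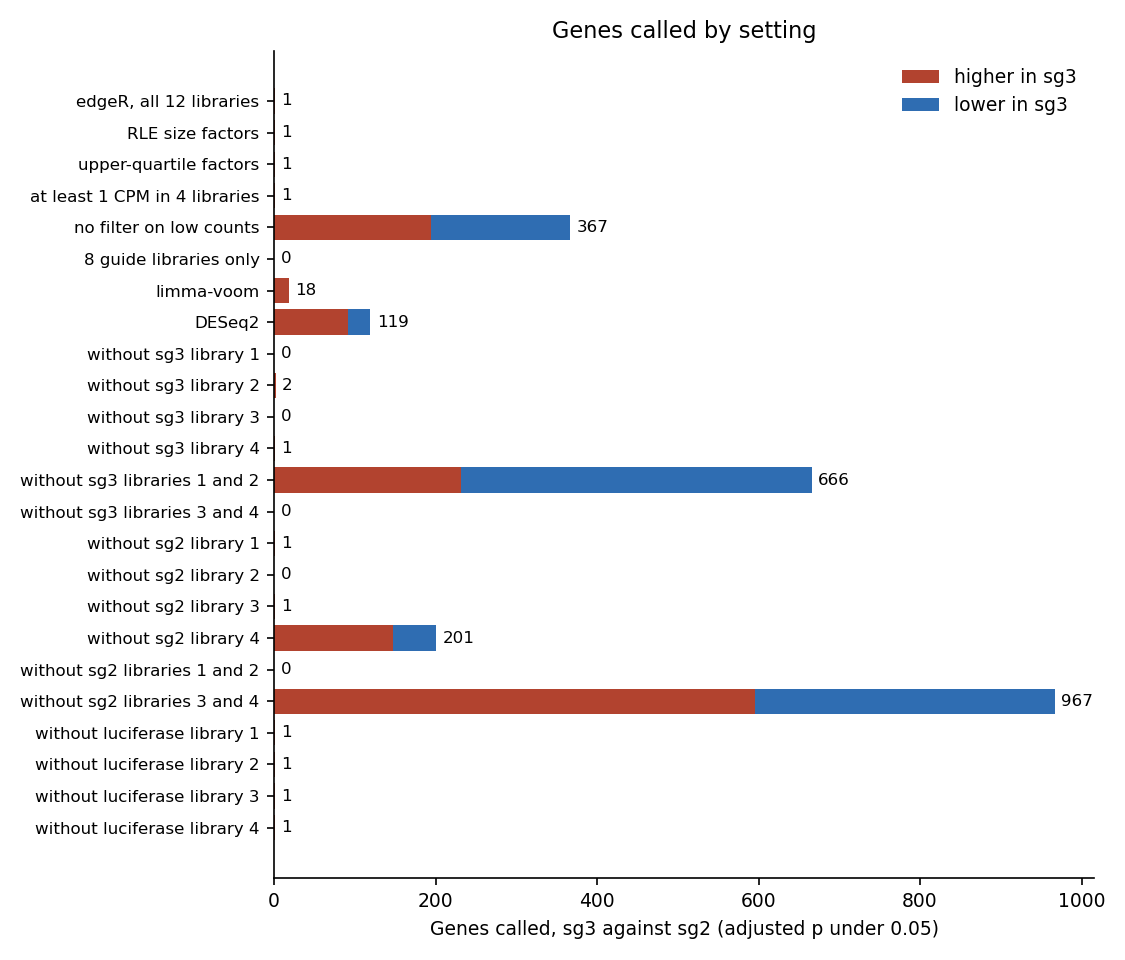
Number of genes called for sg3 against sg2 (horizontal axis, adjusted p under 0.05) under 24 settings, split into higher and lower in sg3. The count is 1 for edgeR on all libraries, 967 without sg2 libraries 3 and 4, and 0 without sg2 libraries 1 and 2.

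KIT encodes the receptor tyrosine kinase for stem cell factor, which early blood progenitors, erythroid precursors and mast cells depend on. It lies on chromosome 4, bases 54657928 to 54740715. Its level was 1429, 1424, 1424 and 1493 CPM in the sg3 libraries and 1047, 1099, 1209 and 1222 CPM in the sg2 libraries. No library of one guide overlapped those of the other, and the sg3 libraries were the tighter set. The log2 fold change was 0.33 (SE 0.04, 95% interval 0.24 to 0.43, edgeR adjusted p = 0.016). Both guides lay above the luciferase libraries, which measured 864 to 890 CPM: the log2 fold change was 0.72 with sg3 (edgeR adjusted p = 3.25e-08) and 0.38 with sg2 (edgeR adjusted p = 2.06e-05), values that share their 4 controls. KIT remained called in 17 of 24 alternatives and was higher in sg3 in all 24, from 0.25 without sg2 libraries 1 and 2 (edgeR adjusted p = 0.18) to 0.43 without sg2 libraries 3 and 4.

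Other tools called more genes on the same libraries. Limma-voom called 18 (0.129% of 13996), all higher in sg3, and DESeq2 called 119 (0.929% of 12815 with an adjusted p), 92 higher and 27 lower. All 18 of the limma-voom genes were among the 119. The genes named from these calls, and the list members named further on that are not the most highly expressed of their list, were chosen after their values were seen. Except for KIT, none of them was called by edgeR. In 15 of the 18, sg2 libraries 3 and 4 both lay above sg2 libraries 1 and 2.

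**Figure D4:**
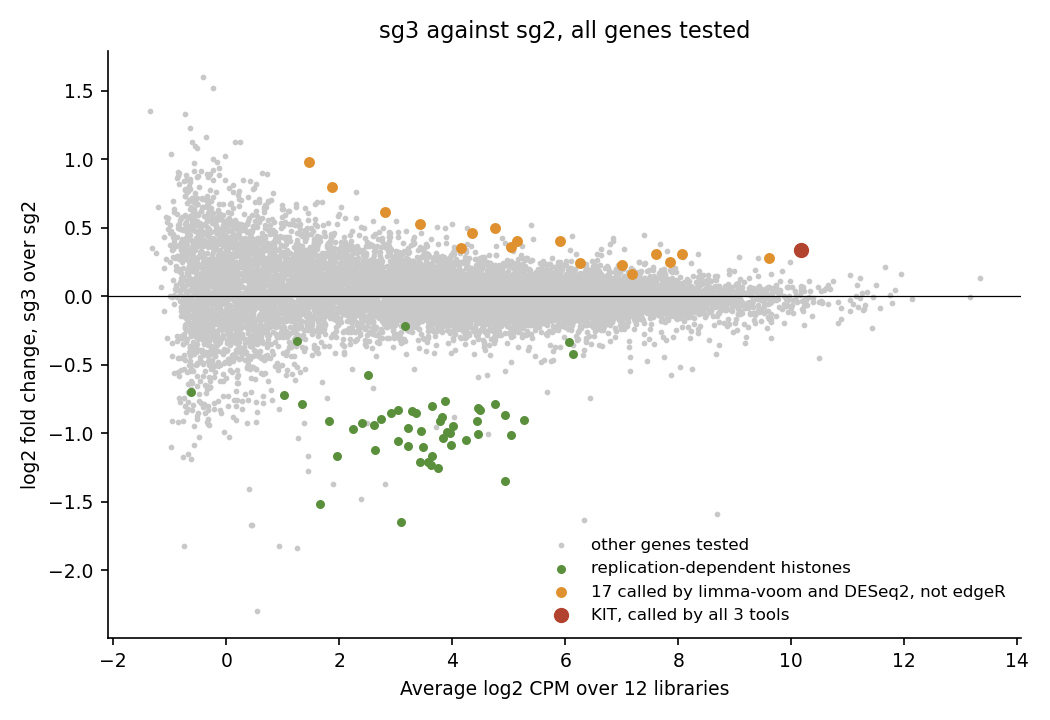
Log2 fold change of sg3 over sg2 (vertical axis) against average log2 CPM over 12 libraries (horizontal axis) for the genes tested, with the other 17 genes that limma-voom and DESeq2 both called in orange and histones in green. KIT, at 0.33, stands among the most highly expressed genes, and most replication-dependent histones lie near their median of -0.93.

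The 18 genes have different functions. CPA3, a carboxypeptidase stored in mast cell granules, measured 246, 251, 226 and 242 CPM in sg3, against 172, 190, 203 and 216 CPM in sg2. Its control level was 145 ± 5.76 CPM (n = 4), and edgeR called it above control with sg3 (adjusted p = 1.79e-07) and with sg2 (adjusted p = 7.16e-05). GFI1, a transcriptional repressor of blood progenitors, measured 9.90, 10.1, 8.85 and 10.3 CPM in sg3, against 5.82, 5.90, 7.47 and 6.73 CPM in sg2. TGM2, a transglutaminase that crosslinks proteins, measured 312, 329, 318 and 358 CPM in sg3, against 245, 253, 280 and 288 CPM in sg2. In all 3 the guides did not overlap, and the log2 fold changes were 0.31, 0.62 and 0.31, with adjusted p-values of 0.079, 0.069 and 0.064 in edgeR. VIM (vimentin, an intermediate filament protein) had 913 to 986 CPM in sg3 and 710 to 865 CPM in sg2. SLC40A1, which exports iron from cells as ferroportin, had 159 to 163 CPM in sg3 and 143 to 147 CPM in sg2, a log2 fold change of only 0.16 between very tight sets of libraries. DEPTOR, an inhibitor of the mTOR kinase, had 13.1 to 15.8 CPM in sg3 and 9.32 to 11.5 CPM in sg2. FOS, an immediate early transcription factor, had 29.9 to 35.2 CPM in sg3 and 19.8 to 27.4 CPM in sg2, with control at 24.8 ± 1.25 CPM (n = 4). LIF, a cytokine that signals through JAK kinases, had 32.2 to 38.0 CPM in sg3 and 26.2 to 30.2 CPM in sg2, with control at 33.8 ± 1.26 CPM. The other members were RCSD1, PTGIR (the prostacyclin receptor), ROBO2, STAR (a cholesterol carrier of mitochondria), BBS2, PLIN3, TNFRSF19, MIR210HG (the host of a microRNA induced by low oxygen) and KDM4C.

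DESeq2 called further genes that the other tools did not. HDC, which makes histamine, had 883 to 937 CPM in sg3 and 770 to 872 CPM in sg2 (DESeq2 adjusted p = 0.013). SIGLEC6, a sialic acid receptor found on mast cells, had 111 to 118 CPM in sg3 and 85.3 to 105 CPM in sg2 (DESeq2 adjusted p = 0.0047). Both genes were without overlap between the guides. Control stood at 675 ± 13.3 CPM for HDC and at 75.2 ± 3.09 CPM for SIGLEC6 (n = 4 each). With either guide, edgeR called both genes above control (adjusted p of 0.00042 or less), and these comparisons share the control libraries. No list of mast cell genes was among those examined. Of the 27 genes that DESeq2 called lower in sg3, GDF3, a growth factor of the TGF-beta family, had 6.03 to 7.45 CPM in sg3 and 8.05 to 11.0 CPM in sg2 (log2 fold change -0.53). SFPQ, a splicing factor, had 715 to 772 CPM in sg3 and 791 to 847 CPM in sg2 (-0.15). MDM2, the ubiquitin ligase that limits p53, had 103 to 109 CPM in sg3 and 118 to 132 CPM in sg2 (-0.23), with control at 125 ± 10.8 CPM, and these 3 too were without overlap.

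No member of any of 30 gene lists was called by edgeR between the guides, so lists are given by their medians and by counts at an unadjusted p under 0.05, to be read against the shares over all genes above. The median of all genes was 0.00. In the list of hypoxia response and glycolysis, 38 genes were tested and the median log2 difference was 0.19. Of these, 26 had an unadjusted p under 0.05 with sg3 higher and 1 with sg3 lower, and 8 lay above sg2 without overlap and 0 below. Relative to the mean of control, the median of the list was 0.73, 0.72, 0.71 and 0.66 in sg3 libraries 1 to 4, against 0.31, 0.27, 0.65 and 0.71 in sg2 libraries 1 to 4. Sg2 libraries 3 and 4 reached the level of sg3 and sg2 libraries 1 and 2 did not. Accordingly the median difference was 0.40 without sg2 libraries 3 and 4 and 0.03 without sg2 libraries 1 and 2. In the first fit edgeR called 30 members, all higher in sg3, where 4.11% of all genes were called higher. In the second fit it called 0. These fits leave out the libraries that form the split in the same values. Their counts restate that split and are no separate test of the guides.

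KDM3A, a demethylase of lysine 9 that is itself induced by low oxygen, measured 165, 160, 166 and 171 CPM in sg3, against 115, 113, 145 and 152 CPM in sg2, and the guides did not overlap (log2 fold change 0.34, edgeR adjusted p = 0.11). BNIP3, which marks mitochondria for removal, measured 170, 170, 159 and 159 CPM in sg3, against 93.2, 95.1, 150 and 165 CPM in sg2, where library 4 overlapped sg3. ENO1, the glycolytic enolase, measured 3688, 3760, 3733 and 3800 CPM in sg3, against 2914, 2932, 3432 and 3648 CPM in sg2. Without overlap were also the glycolytic enzymes GPI (0.29), PGAM1 (0.19) and HK1 (0.07), the aldolases ALDOA (0.52) and ALDOC (0.45), and GBE1 of glycogen synthesis (0.26). ALDOA measured only 58.0 ± 7.92 CPM in sg3 and 41.0 ± 7.68 CPM in sg2, below ALDOC at 253 ± 8.35 and 187 ± 53.4 CPM (n = 4 each). The reason for this low level was not tested. GAPDH, the most highly expressed member, had 4281 to 4608 CPM in sg3 and 3588 to 4560 CPM in sg2, which overlap. Against control, 32 members were called higher and 1 lower with sg3 (44.1% of all genes were called in that comparison), and 31 higher and 2 lower with sg2 (28.3% of all genes). Both comparisons use the same 4 control libraries.

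Lists of signalling genes had small medians. For AP-1 and immediate early genes (33 tested) the median was 0.14, with 7 higher and 1 lower at an unadjusted p under 0.05, and by library it was 0.36, 0.36, 0.40 and 0.29 over control in sg3, against 0.06, 0.04, 0.34 and 0.28 in sg2. The same pair of sg2 libraries was low as in the hypoxia list. EGR1, its most highly expressed member, had 306 to 338 CPM in sg3 and 214 to 312 CPM in sg2. For JAK-STAT targets and feedback (31 tested) the median was 0.06, with 9 higher and 2 lower at an unadjusted p under 0.05 and 5 above sg2 without overlap. JAK2, the kinase that is mutated in these cells, measured 325, 328, 330 and 331 CPM in sg3, against 294, 300, 315 and 311 CPM in sg2, with control at 325 ± 14.0 CPM. The guides did not overlap, and the log2 fold change was 0.11 (edgeR adjusted p = 0.23). PIM1, a survival kinase induced by STAT5, had 1013 to 1018 CPM in sg3 and 876 to 1011 CPM in sg2, and CISH, a feedback inhibitor, had 68.5 to 72.7 CPM in sg3 and 56.7 to 68.2 CPM in sg2. For the NF-kB pathway (26 tested) the median was 0.09, with 5 higher and 1 lower.

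For interferon-stimulated genes (39 tested) the median was 0.08, with 9 higher and 0 lower at an unadjusted p under 0.05 and 4 above sg2 without overlap. Among them were B2M, DDX60 and HLA-C. B2M, the light chain of class I antigen-presenting molecules, measured 217, 215, 282 and 286 CPM in sg3, against 187, 191, 191 and 198 CPM in sg2, and here sg3 libraries 3 and 4 were high (log2 fold change 0.38, edgeR adjusted p = 0.11). HLA-C, a heavy chain of the same molecule, had 372 to 396 CPM in sg3 and 318 to 363 CPM in sg2. HLA-B, another heavy chain, had 315 to 386 CPM in sg3 and 279 to 332 CPM in sg2, which overlap (log2 fold change 0.24, edgeR adjusted p = 0.14). Reads of HLA genes can fit more than 1 copy, so their values are uncertain.

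**Figure D5:**
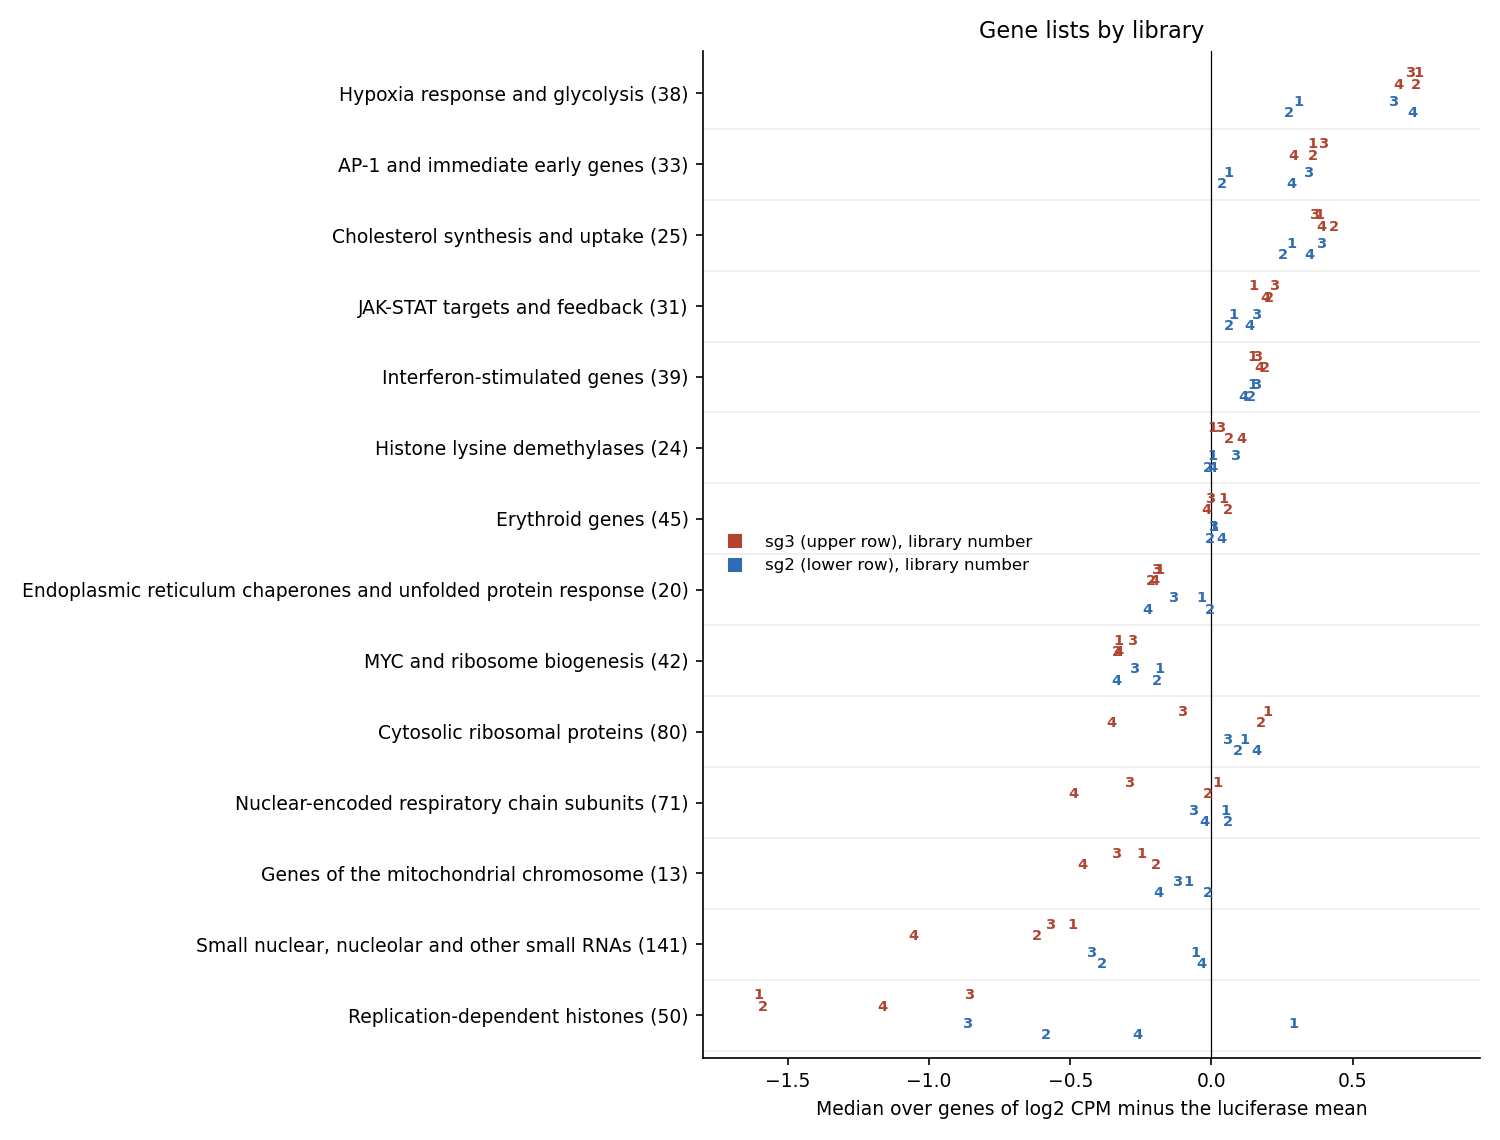
Median over the genes of 14 lists of log2 CPM minus the mean of the luciferase libraries (horizontal axis), for each library of sg3 (upper row) and sg2 (lower row). Digits are library numbers and the number of genes tested is in brackets. The hypoxia list splits sg2 into 0.31 and 0.27 against 0.65 and 0.71, and the respiratory chain list sets sg3 libraries 3 and 4 apart at -0.29 and -0.49.

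The lists with the lowest medians were those of histones and of small RNAs. Replication-dependent histones, whose mRNAs end in a stem-loop in place of a poly(A) tail, had a median of -0.93 over 50 genes. At an unadjusted p under 0.05, 40 were lower and 0 higher, and 21 lay below sg2 without overlap. The median of the list relative to control was -1.60, -1.59, -0.85 and -1.16 in sg3, against 0.29, -0.59, -0.86 and -0.26 in sg2, and the control libraries themselves lay at -0.99, 0.64, -0.38 and 0.71. The control libraries thus spread over more than the difference between the guides. H4C8, a gene of histone H4, measured 11.6, 10.4, 17.2 and 12.5 CPM in sg3, against 53.2, 28.0, 23.1 and 28.4 CPM in sg2, and was called by DESeq2 (adjusted p = 0.026) and not by edgeR (adjusted p = 0.11). H2BC12, the most highly expressed, had 52.8 to 60.0 CPM in sg3 and 66.6 to 94.1 CPM in sg2. Some histone genes are close copies of each other, and the counts of those genes are uncertain on that account.

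Small nuclear, nucleolar and other small RNAs (141 tested) had a median of -0.35, with 33 lower and 0 higher at an unadjusted p under 0.05. RN7SK, which holds back the elongation factor P-TEFb, measured 160, 154, 191 and 75.7 CPM in sg3, against 590, 285, 214 and 670 CPM in sg2 (log2 fold change -1.59, SE 0.46, edgeR adjusted p = 0.16), and control ranged from 216 to 1284 CPM. RMRP, the RNA of an endonuclease that processes ribosomal RNA, measured 35.2, 32.2, 32.5 and 13.5 CPM in sg3, against 129, 67.4, 38.9 and 123.5 CPM in sg2. In both, all sg3 libraries were below all sg2 libraries, and sg3 library 4 was the lowest. Whether selection of polyadenylated RNA differed between libraries was not tested, and the kit is not given in the sources used here.

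Transcripts of the mitochondrial chromosome lay lower in sg3 for part of its genes. For the 13 genes of the mitochondrial chromosome the median was -0.20, with 7 lower and 0 higher at an unadjusted p under 0.05. CYTB, a subunit of respiratory complex III, measured 966, 986, 976 and 989 CPM in sg3, against 1135, 1242, 1084 and 1080 CPM in sg2, with 1378 to 1507 CPM in control. COX3 of complex IV had 2247 to 2534 CPM in sg3 and 2603 to 3055 CPM in sg2. Both were without overlap and both were called by DESeq2 (adjusted p = 0.0026 and 0.0076) but not by edgeR (0.085 and 0.11). COX1, the most highly expressed, had 8834 to 9455 CPM in sg3 and 8899 to 9725 CPM in sg2, which overlap. The share of all counts on the mitochondrial chromosome was 2.56% to 2.66% in sg3, 2.69% to 2.92% in sg2 and 2.83% to 3.01% in control. In bulk RNA, fewer cells with such transcripts and less of them per cell cannot be told apart.

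For nuclear-encoded respiratory chain subunits (71 tested) the median was -0.18 and for cytosolic ribosomal proteins (80 tested) it was -0.12. The first list had 20 members lower and 0 higher at an unadjusted p under 0.05, the second 1 lower and 3 higher. In both lists sg3 libraries 3 and 4 were low, and control library 4 was the lowest of its group, at -0.13 in each. Respiratory chain subunits stood at 0.02, -0.01, -0.29 and -0.49 over control in sg3, against 0.05, 0.06, -0.06 and -0.02 in sg2, and ribosomal proteins at 0.20, 0.17, -0.10 and -0.35 in sg3, against 0.12, 0.10, 0.06 and 0.16 in sg2. Without sg3 libraries 3 and 4 the medians were 0.00 and 0.07. For mitochondrial ribosomal proteins (78 tested) the median was -0.09, with 18 lower and 2 higher. The 2800 genes of shortest summed exon length (2086 bases or less) had medians of 0.03, 0.03, -0.05 and -0.11 over control in sg3 and 0.03, -0.00, -0.01 and 0.04 in sg2, and control library 4 lay at -0.05, so short genes as a whole were low in sg3 libraries 3 and 4 and in control library 4. The part of transcript length in these results was not tested.

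For the remaining lists the guides differed by 0.11 or less in the median of any list of more than 5 genes. Endoplasmic reticulum chaperones (20 tested) had a median of -0.09, with 7 lower and 0 higher at an unadjusted p under 0.05 and 4 below sg2 without overlap, among them CALR (calreticulin), with 654 to 709 CPM in sg3 and 710 to 842 CPM in sg2. MYC and ribosome biogenesis genes (42 tested) had -0.07 with 10 lower and 1 higher, and cytosolic heat shock chaperones (21 tested) -0.08 with 4 lower and 1 higher. Cholesterol synthesis and uptake (25 tested) had 0.07 with 8 higher and 0 lower. Senescence-associated secretory genes (24 tested) had 0.11 with 1 higher and 1 lower, and p53 targets (21 tested) 0.03 with 1 higher and 2 lower. S phase (50 tested), G2/M (46 tested), serine and one-carbon metabolism (18 tested), metallothioneins and zinc transport (11 tested) and the methyltransferases and readers of lysines 9 and 36 (26 tested) had medians of -0.01, 0.00, -0.01, 0.01 and -0.05. ATF4 targets (25 tested) had -0.06. All these counts are to be set beside the 7.97% and 7.02% of all genes.

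Histone lysine demethylases (24 tested) had a median of 0.04, with 6 higher and 1 lower at an unadjusted p under 0.05 and 5 above sg2 without overlap, namely KDM4C, KDM3A, KDM5B, KDM2B and KDM2A. The relatives of KDM4C did not pass the test. KDM4B measured 87.4, 90.0, 93.7 and 100 CPM in sg3, against 67.2, 64.0, 87.8 and 84.7 CPM in sg2, with control at 51.2 ± 1.70 CPM, and its log2 fold change was 0.31 (95% interval 0.13 to 0.48, edgeR adjusted p = 0.15). Only sg2 library 3 reached the lowest sg3 library. For KDM4A the difference was 0.04 (-0.04 to 0.13), at 104 ± 5.28 CPM in sg3 and 100 ± 2.03 CPM in sg2 (n = 4 each). For KDM4D it was 0.03 (-0.35 to 0.41), at 2.80 ± 0.489 CPM in sg3 and 2.76 ± 0.303 CPM in sg2 (n = 4 each), where the low count leaves a wide interval.

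The 5 genes that the study named on these samples gave no call between the guides. CDKN1A, the cell cycle inhibitor p21, had 8.13 to 10.3 CPM in sg3 and 8.16 to 10.9 CPM in sg2 (0.06, 95% interval -0.17 to 0.29), against 4.94 ± 0.372 CPM in control. IL1B, an inflammatory cytokine, had 52.0 to 61.3 CPM in sg3 and 48.6 to 60.0 CPM in sg2 (0.12, -0.03 to 0.27). BCL2, which blocks apoptosis, had 16.6 to 17.9 CPM in sg3 and 15.6 to 17.7 CPM in sg2 (0.05, -0.11 to 0.21). THBS1, a matrix glycoprotein, had 32.0 to 38.9 CPM in sg3 and 31.8 to 34.2 CPM in sg2 (0.10, -0.05 to 0.25). MTOR, the growth kinase, had 160 to 196 CPM in sg3 and 169 to 208 CPM in sg2 (-0.10, -0.24 to 0.05). In each the libraries of the guides overlapped, and the 95% interval lay within 0.5 of 0. These intervals rest on the spread between libraries, which may be technical. Without sg2 libraries 1 and 2, the sign turned for CDKN1A and MTOR.

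Genes of the erythroid and megakaryocytic lineages, both of which HEL cells express, differed little in their medians. For erythroid genes (45 tested) the median was 0.02, with 7 higher and 2 lower at an unadjusted p under 0.05, and for megakaryocyte and platelet genes (35 tested) it was 0.02, with 3 in each direction. Of the erythroid genes, 3 lay above sg2 without overlap and 3 below, against 3.41% and 2.54% of all genes. The lowest was HBA1 (log2 fold change -0.75, edgeR adjusted p = 0.35), which was low in sg3 libraries 3 and 4. GATA1, the master factor of both lineages, had 254 to 275 CPM in sg3 and 249 to 267 CPM in sg2, and TAL1, its partner, 383 to 396 CPM in sg3 and 409 to 424 CPM in sg2 (without overlap, log2 fold change -0.09, edgeR adjusted p = 0.25). ITGA2B, an integrin of megakaryocytes, had 1327 to 1501 CPM in sg3 and 1228 to 1379 CPM in sg2. PF4, a platelet chemokine, was near the limit of detection, at 0.904 to 2.44 CPM in sg3 and 1.62 to 2.09 CPM in sg2. Of the markers of other cell types, 5 of 12 lymphoid, 3 of 12 myeloid and 7 of 13 stromal and epithelial genes passed the filter on low counts. CD3D and CD3E of T cells had at most 1 count in any library, MS4A1 of B cells at most 2, and ELANE, AZU1 and PRTN3 of granulocytes none. Among those that passed, CD79A of B cells had a mean of 3.90 CPM in sg3, 3.33 CPM in sg2 and 2.61 CPM in control. CSF3R of granulocytes had 2.54, 2.02 and 1.10 CPM in the same order, and CD2 of T cells 1.96, 2.45 and 2.41 CPM. The summed level of the tested lymphoid markers was 196 to 210 CPM in sg3, 175 to 195 CPM in sg2 and 152 to 157 CPM in control, nearly all of it PTPRC, which blood cells share. That of the myeloid markers was 47.9 to 55.8 CPM in sg3, 46.6 to 49.9 CPM in sg2 and 36.6 to 45.5 CPM in control. That of the stromal and epithelial markers was 314 to 334 CPM in sg3, 302 to 320 CPM in sg2 and 258 to 273 CPM in control. Most of it was PECAM1 (means of 168, 157 and 146 CPM in the same order) and KDR (92.5, 92.3 and 68.0 CPM). COL1A2 had 0 counts in every library, DCN at most 2, KRT19 at most 5 and EPCAM at most 10.

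By the median, the position of the genes gave little difference between the guides. The median log2 difference lay between -0.02 and 0.03 on every chromosome but the mitochondrial one. On chromosome 9, where both guides cut, it was 0.04 for the 21 genes between the end of the short arm and KDM4C, -0.01 for the 122 genes from KDM4C to the end of the short arm and -0.01 for 396 genes of the long arm. Of the 21 genes, 3 lay above sg2 without overlap, JAK2 and ERMP1 among them, and 0 below, against 3.41% and 2.54% of all genes. Of the 5 tested genes nearest to KDM4C on each side, none was called. ERMP1, on the side of the telomere, had 341 to 369 CPM in sg3 and 303 to 333 CPM in sg2, and NFIB, on the other side, 113 to 118 CPM in sg3 and 123.4 to 137 CPM in sg2. These were without overlap, in opposite directions. Of the other 8, only DMAC1 had an interval that left out 0 (-0.26, 95% interval -0.50 to -0.03), and its libraries overlapped.

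Similar sequences elsewhere in the genome were counted for both guides, with the NGG motif and up to 3 mismatches. Beside the target, sg3 had 2 such sites, both with 3 mismatches and neither in an exon. Sg2 had 8, of which 2 had 2 mismatches and 6 had 3. The sg2 site with 2 mismatches on chromosome 13 (bases 77988367 to 77988386, substitutions C15A and C18A, counted from the 5′ end of the guide) lies in an exon of LINC01069, a noncoding RNA that had 0 counts in all 12 libraries. The other, on chromosome 16 (bases 76768620 to 76768639, A9G and T10A), lies in an intron. No coding exon held a near match of either guide, and cutting at these sites was not measured.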

How the data were processed

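RNA sequencing of 12 HEL-Cas9 libraries (4 each for sg3, sg2 and luciferase control) was analysed from the gene counts that the authors deposited. The authors' counts come from paired-end, strand-specific reads after trimming (Trimmomatic 0.39), alignment to hg38 (STAR 2.7.4a) and counting (featureCounts 2.0.1), and they were deposited without normalization. The stated counting options name no strand, so overlapping and antisense genes may share reads. Of 38571 lines, 20 were broken, and the 6 genes they belonged to were left out. Gene positions overlapped GENCODE annotation of hg38 for 99.966% of 26196 genes compared.

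Genes were kept by filterByExpr (minimum count 10, minimum total 15). After TMM scaling, edgeR 4.0.16 (R 4.3.3) fitted a quasi-likelihood model, with a mean for each of the 3 groups, to the 12 libraries together. Genes were called at a Benjamini-Hochberg adjusted p of 0.05 over all genes tested, and all edgeR values are from this test. The study's own tool, DESeq2 (1.42.0 here), and limma-voom (limma 3.58.1) were alternatives, with other scalings, filters and sets of libraries. Log2 CPM used a prior count of 2. SDs are over the 4 libraries of a group. The fit was also run on simulated counts whose libraries had no split within a guide, so that run cannot show how the test handles such splits.

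Members, gene lists and tests were chosen with earlier results of these data known. Genes were named by a rule: the KDM4 genes, JAK2 and the genes the study named; the 12 largest rises and falls called among protein-coding genes (average log2 CPM of 2 or more); called non-coding genes; from each list up to 4 called members and the most highly expressed one; genes with a near match of a guide in an exon; the 5 tested genes nearest to KDM4C on either side; and the 5 genes with the largest SD per guide. As 1 gene was called, further genes were added after their values were seen. Some genes are not reported here.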

Additional observations from a re-analysis of the deposited data

Results flagged for a closer look

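Within 206 groups of 4 libraries (a gene or a list median in sg3 or in sg2), 13 held 1 library far from the other 3. That share is near the 5% that chance alone gives. Some of these genes were also named for a large SD or after their values were seen. The cases below may therefore be chance. In sg3, library 4 was the highest for KIT (1493 CPM) and ROBO2 (94.99 CPM) and the lowest for RMRP (13.5 CPM) and SDF2L1 (26.7 CPM). Library 3 of sg3 was the highest for the histone genes H4C2 (8.23 CPM) and H4C1 (8.70 CPM), for MDM2 (109 CPM) and for the median of MYC and ribosome biogenesis genes over control (-0.28 on the log2 scale). In sg2, library 1 was the highest for the histone genes H4C5 (53.3 CPM), H4C1 (23.1 CPM) and H2BC17 (27.4 CPM). Library 4 of sg2 was the highest for KDM4D (3.21 CPM), and library 3 for the median of histone lysine demethylases over control (0.087 on the log2 scale).

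KIT was the gene called between the libraries of sg3 and of sg2 by edgeR's quasi-likelihood test. The difference was 0.33 on the log2 scale (adjusted p = 0.016), with all 4 sg3 libraries above all 4 sg2 libraries. Guide and transduced pool cannot be told apart in it.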

How the results depend on the processing

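The count of genes called (1, higher in sg3) was the same with RLE or upper-quartile scaling and with at least 1 CPM in 4 libraries. It was 367 (194 higher) with no filter on low counts, 18 (18 higher) with limma-voom and 119 (92 higher) with DESeq2. It was 0 (0 higher) in an edgeR fit of the 8 guide libraries alone (1767 at an unadjusted p under 0.05), without sg2 libraries 1 and 2 and without sg3 libraries 3 and 4, 967 (595 higher) without sg2 libraries 3 and 4, and 666 (231 higher) without sg3 libraries 1 and 2. Leaving out 1 library at a time gave 0 to 201 calls (0 to 147 higher). Fits without a pair of libraries also had fewer samples, and the cause of these shifts was not tested. With the replicate number as a block 2 genes were called (2 higher), KIT not among them (adjusted p = 0.052). Deviations of same-numbered libraries correlated between -0.0357 and 0.0559, within the range of -0.1018 to 0.0852 for libraries of different number. Between libraries 1 or 2 of one guide and libraries 3 or 4 of the other, every correlation was negative (-0.1018 to -0.0023). Whether both guides share a split between these pairs of libraries was not tested. For KDM4C the difference passed the threshold with no filter (0.40), limma-voom (0.43), DESeq2 (0.40), without sg2 libraries 3 and 4 (0.56) and without sg3 libraries 1 and 2 (0.44), it was 0.40 with the replicate block, and it ranged from 0.34 to 0.49 when 1 library was left out, passing without sg2 library 4. The sign turned for KDM4A without sg3 libraries 3 and 4 (-0.0077), KDM4D without sg2 libraries 1 and 2 (-0.068; -0.050 to 0.11 leaving out 1 library), CDKN1A without sg2 libraries 1 and 2 (-0.12; -0.017 to 0.14 leaving out 1 library), MTOR without sg2 libraries 1 and 2 (0.027) and without sg3 libraries 1 and 2 (0.0015), and RPS29 without sg3 libraries 3 and 4 (0.076). None of these 5 was called in the full fit. With at most 2 mismatches, sg3 had 0 near matches and sg2 had 2.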
